A study of Homo sapiens with 6 samples.

Results

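Transcripts of 10 genes of the TGF-beta family and its SMAD pathway were followed in RNA-seq libraries of HCT116 cells with and without oxaliplatin. They were 6 ligands (GDF15, TGFB1, TGFB2, INHBA, BMP4 and BMP7), 2 receptors (TGFBR1 and TGFBR2) and 2 SMAD proteins (SMAD3 and SMAD7), chosen by gene symbol among the 27942 genes of the deposited count table. The symbols found 9 of the 10. TGFB1 was found by its Ensembl identifier, ENSG00000105329, because the table lists it under the clone-based name AC011462.1. HCT116 is a human colorectal carcinoma line with wild-type p53, and oxaliplatin is a platinum drug that forms DNA adducts. The treated group (OXA, n = 3) received 0.5 µM oxaliplatin for 24 h and the control group (NT, n = 3) received none, and all cells grew in RPMI with fetal serum. On antibiotics the sources differ, since the labels name penicillin and streptomycin but the study's methods state that the cells got none. HCT116 cells are mismatch-repair deficient and are known to carry inactivating frameshift mutations in TGFBR2, so a TGFBR2 transcript level does not report on a working receptor. The labels do not say whether the replicates of a group were separate cultures, so p-values measure the spread between these libraries, which may be technical.

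Ligands of this family are secreted as dimers that bring together type II and type I serine/threonine kinase receptors, and the type I receptor then phosphorylates receptor SMADs. SMAD2 and SMAD3 carry the signal of TGF-beta and activin, SMAD1, SMAD5 and SMAD9 carry that of the BMPs, and both groups enter the nucleus with SMAD4. SMAD6 and SMAD7 are inhibitors that the pathway itself induces. In the intestine, TGF-beta restrains epithelial growth, and the pathway is often inactivated in colorectal cancer, while GDF15 is a distant member known as a stress-induced, circulating ligand and as a target of p53.

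Library totals lay between 32979521 and 40967880 counts. NT library 1 stood apart from the other NT libraries, with a chi-square per gene of 79.1 and 72.0 against them where all other pairs within a group gave 18.3 to 28.1. Values without it are therefore given where they matter. NT and OXA libraries of the same number shared their deviations from the group means (correlation 0.55, 0.54 and 0.31), so a second fit took the replicate number as a block, and its values are given where they change a call. Of the 9 colorectal epithelial markers, EPCAM, KRT8, KRT18, CDH1, VIL1 and CDX2 were above the floor of 3 counts and CDX1, LGR5 and ASCL2 were not. The summed level of these markers was 2577 to 3264 TPM (transcript abundance scaled for length and library size) in NT and 3340 to 3655 in OXA, which is higher in every OXA library. The sum was carried by KRT8 and KRT18, while CDH1 was lower in every OXA library (64.2 to 74.8 TPM in NT and 51.3 to 62.6 in OXA) and EPCAM overlapped (484 to 592 and 464 to 533 TPM), and the part of these differences in the following results was not tested. Summed fibroblast markers were at 1.70 to 4.16 TPM in NT and 2.44 to 4.07 in OXA, with 3 of 6 at or under the floor. Leukocyte markers, nearly all CD68, were at 8.07 to 9.86 and 8.74 to 10.0 TPM, and endothelial markers at 0.204 to 0.298 and 0.163 to 0.262 TPM. In bulk RNA, a change in the share of some cells and a change in transcript per cell cannot be told apart.

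GDF15 rose 3.99-fold in the oxaliplatin-treated cells and SMAD3 rose 1.38-fold, while no other ligand, receptor or SMAD among the 10 passed the threshold. Of the 9 genes with enough counts to test, 2 had an adjusted p under 0.05 in edgeR's quasi-likelihood test, the threshold for a call, and both were higher in OXA. Over all 13727 genes tested, 5.07% were called in either direction, 2.78% higher and 2.29% lower (381 and 315 genes, or 348 and 493 with upper quartile factors and 350 and 511 with library size alone). Of the 2 called genes, GDF15 was past a 1.5-fold change, as were 3.41% of all genes tested by both criteria. INHBA was too low to test.

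GDF15 (ENSG00000130513, chr19:18374731-18389176, plus strand, GRCh38) encodes growth differentiation factor 15, which signals through the receptor GFRAL and its partner RET. Its TMM-normalized counts (raw counts scaled to a common library size by edgeR's trimmed mean method) were 496, 1018 and 1281 in NT and 3021, 4256 and 3872 in OXA. Every OXA library lay well above every NT library, and NT library 1 was the lowest of the 6. The mean went from 931 ± 399 (SD, n = 3) to 3716 ± 632, a log2 fold change of 1.99 with a standard error of 0.32 and a 95% interval of the fold from 2.39 to 6.66 (edgeR adjusted p = 0.0169). By the size of the rise it ranked 37 of 13727 tested genes. The 3 same-numbered pairs gave log2 ratios of 2.604, 2.063 and 1.595, so the widest came from the pair with NT library 1. Without that library the log2 fold change was 1.69 (edgeR adjusted p = 0.000743). The edgeR adjusted p rose above 0.05 without NT library 2 (0.0565), OXA library 1 (0.0606), OXA library 2 (0.0765) or OXA library 3 (0.0770), with log2 fold changes of 1.89 to 2.12. In a test against a 1.5-fold change, the edgeR adjusted p was 0.0997. GFRAL had 0 counts in every library, and RET, which also serves other ligands, had a mean TMM-normalized count of 332 ± 61.6 without treatment and 246 ± 19.1 with it (log2 fold change -0.43, edgeR adjusted p = 0.205).

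SMAD3 (ENSG00000166949, chr15:67063763-67195173, plus strand) encodes the receptor SMAD that carries TGF-beta and activin signals into the nucleus. Its TMM-normalized counts were 3279, 3432 and 3218 in NT and 4724, 4584 and 4407 in OXA. The libraries of each group lay close together and the groups were far apart against that spread. The mean rose from 3309.7 ± 110.0 to 4572 ± 159, with a log2 fold change of 0.47, a standard error of 0.079 and a 95% interval from 0.28 to 0.65 (edgeR adjusted p = 0.0209). With the gene-specific factors that the authors' normalized signal contains, the log2 fold change was 0.62 and the edgeR adjusted p 0.122. That signal put OXA library 3 at 3469, below NT library 2 at 3512. With the same factors and the replicate block the edgeR adjusted p was 0.00403. The call was lost without any library other than NT library 1 (edgeR adjusted p from 0.0565 to 0.125), at log2 fold changes of 0.41 to 0.46. Exons of an antisense transcript, ENSG00000259347, overlap those of SMAD3, and the strand setting of the counting was not given in the sources used here.

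**Figure D1:**
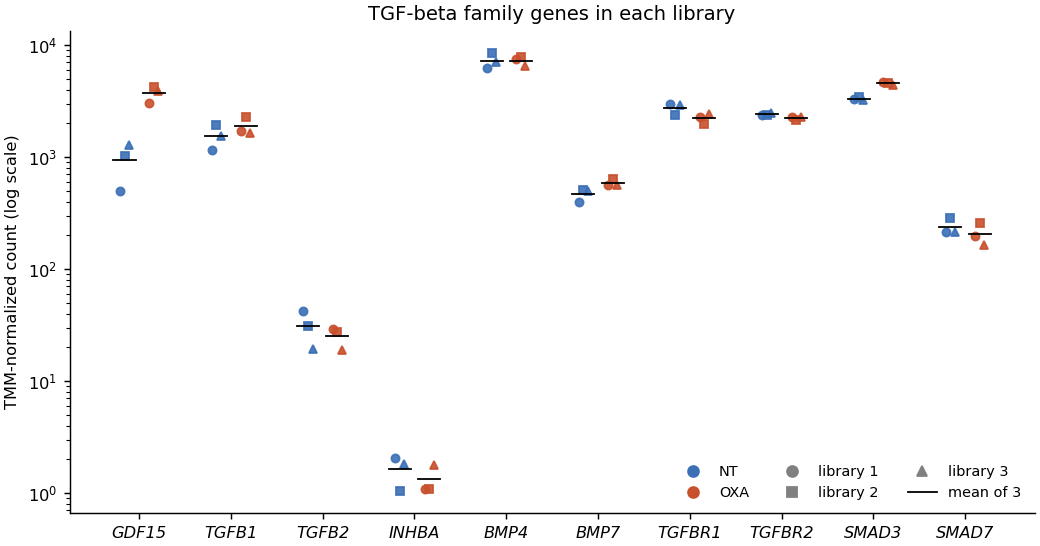
TMM-normalized counts (log scale) of the 10 genes in each of the 6 libraries, NT in blue and OXA in red, with the library number as the marker shape and the mean of 3 as a bar. GDF15 in OXA lay between 3021 and 4256, above NT at 496 to 1281, while BMP4 overlapped between groups and INHBA stayed near 1 or 2 counts.

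Of the 10 genes, the promoters of the 2 that passed the threshold are shown as the bases just before an annotated transcription start. Both are 250 bases from RefSeq on GRCh38.p14, written 5′ to 3′ on the gene's strand, for GDF15 at chr19:18385908-18386157 and for the first listed SMAD3 start at chr15:67065352-67065601, both inside the longer gene spans given above. Capitals mark matches, on either strand, to any of the motifs searched.
GDF15: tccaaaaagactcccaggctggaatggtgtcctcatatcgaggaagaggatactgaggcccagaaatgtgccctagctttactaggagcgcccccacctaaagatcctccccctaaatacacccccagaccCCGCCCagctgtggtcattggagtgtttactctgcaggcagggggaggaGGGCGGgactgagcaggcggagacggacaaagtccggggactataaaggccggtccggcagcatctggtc
SMAD3: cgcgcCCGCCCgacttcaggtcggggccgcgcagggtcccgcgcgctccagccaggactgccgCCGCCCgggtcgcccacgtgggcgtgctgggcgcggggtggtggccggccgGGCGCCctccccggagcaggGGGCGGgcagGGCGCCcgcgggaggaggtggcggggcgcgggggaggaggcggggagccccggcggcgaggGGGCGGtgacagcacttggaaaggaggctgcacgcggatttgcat
The motifs searched on both strands were the SMAD palindrome GTCTAGAC, the SMAD element CAGACA, the GC-rich SMAD element GGCGCC, the AP-1 site TGACTCA, the cyclic AMP element TGACGTCA, the CHOP and ATF4 composite TGATGCAA, the GC box GGGCGG and a p53 element (a decamer and its repeat, with a spacer of up to 13 bases and at most 1 mismatch). GGCGCC and GGGCGG can share bases. In the GDF15 stretch, GGGCGG occurred at 2 places and no other motif matched. The SMAD3 stretch held 4 matches to GGGCGG and 2 to GGCGCC. Its GC content was 80.8% against 58.4% for GDF15. Among 35116 RefSeq windows that run from 250 bases before to 50 after a start, 45.0% held GGGCGG, 19.2% GGCGCC, 16.9% CAGACA, 4.95% TGACTCA, 1.85% TGACGTCA, 0.866% TGATGCAA, 0.743% the p53 element and 0.202% GTCTAGAC. Windows were listed for 9 of the 10 genes, 25 in all, and BMP7 had none listed. None of the 25 held GTCTAGAC, TGACGTCA, TGATGCAA or the p53 element. CAGACA matched in a window of TGFB2, INHBA, BMP4, TGFBR1 and SMAD3, and TGACTCA in one of TGFBR2 and one of SMAD3. A match is a description of these letters and no match says only that they are not in this window.

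Among the other ligands, BMP7 had groups that did not overlap and BMP4, the most abundant, had nearly equal means. BMP7 (ENSG00000101144, chr20:57168753-57266641, minus strand), a bone morphogenetic protein that signals through SMAD1, SMAD5 and SMAD9, had TMM-normalized counts of 397, 513 and 493 in NT and 557, 638 and 563 in OXA. All OXA values lay above all NT values, with a small gap. The log2 fold change was 0.33 with a standard error of 0.14, and it missed the threshold (edgeR adjusted p = 0.226, and 0.0534 with the replicate block). TGFB1 (ENSG00000105329, chr19:41301587-41353922, minus strand), the founding ligand and a known growth inhibitor of epithelium, had 1147, 1933 and 1550.1 TMM-normalized counts in NT and 1713, 2281 and 1626 in OXA. The groups overlapped, and within each group library 2 was the highest. In each same-numbered pair the OXA value was the higher one, with log2 ratios of 0.58, 0.24 and 0.069. The fitted log2 fold change of 0.28 (standard error 0.21) had an edgeR adjusted p of 0.493, or 0.0940 with the replicate block. Without NT library 1 the log2 fold change was 0.11, and the authors' gene-specific factors gave 0.14. Exons of TGFB1 overlap those of HNRNPUL1 on the opposite strand, so its counts are uncertain if strand was not used in counting.

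BMP4 (ENSG00000125378, chr14:53949736-53958761, minus strand), a bone morphogenetic protein of the intestinal stem cell niche, had 6208, 8465 and 6985 TMM-normalized counts in NT and 7466, 7814 and 6436 in OXA. The OXA values fell inside the NT range. The log2 fold change was 0.0038 with a 95% interval from -0.31 to 0.31 (edgeR adjusted p = 0.993), and its sign turned with the scaling and the library left out. TGFB2 (ENSG00000092969, chr1:218345336-218444619, plus strand), an isoform close to TGFB1 in function, had 41.9, 31.2 and 19.2 TMM-normalized counts in NT and 29.2, 27.3 and 18.7 in OXA. These levels were low and overlapped, and the log2 fold change was -0.30 with a standard error of 0.36 (edgeR adjusted p = 0.689). With the authors' gene-specific factors, which ran from 0.518 to 2.05 for TGFB2, the sign turned, to 0.51. Without NT library 1 the log2 fold change was -0.0067. INHBA (ENSG00000122641, chr7:41667168-41705834, minus strand) encodes the beta A subunit of activin A, and its raw counts were 2, 1 and 2 in NT and 1, 1 and 2 in OXA. All 6 values were at or under the floor of 3 counts, so no fold is given. Exons of BMP4, TGFB2 and INHBA each overlap those of a transcript on the opposite strand. Their counts, and the place of BMP4 among the ligands, are uncertain if strand was not used in counting. Exons of TGFB2 also overlap those of TGFB2-OT1 on the same strand, a transcript not among the counted genes. The counts of TGFB2 are therefore uncertain even if strand was used.

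Neither receptor passed the threshold, and both had lower means in OXA. TGFBR1 (ENSG00000106799, chr9:99104038-99154192, plus strand), the type I receptor that phosphorylates SMAD2 and SMAD3, had 2983, 2382 and 2929 TMM-normalized counts in NT and 2256, 1954 and 2428 in OXA. OXA library 3 lay above NT library 2, so the groups overlapped, while each OXA value was below the NT value of its own number. The log2 fold change was -0.32 with a 95% interval from -0.61 to -0.031 (edgeR adjusted p = 0.190). With the replicate block the log2 fold change was the same to 2 decimals and the edgeR adjusted p 0.0153, in a fit that called 23.0% of all genes tested, 12.1% higher and 10.9% lower in OXA. The authors' gene-specific factors brought the log2 fold change to -0.16, with an edgeR adjusted p of 0.247 in the block fit.

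TGFBR2 (ENSG00000163513, chr3:30606601-30694142, plus strand), the type II receptor that binds TGF-beta first, had 2389.8, 2374 and 2498 TMM-normalized counts in NT and 2257, 2162 and 2267 in OXA. All OXA values lay below all NT values, but by little, with means of 2421 ± 67.2 and 2229 ± 58.2. The log2 fold change was -0.12 with a 95% interval from -0.31 to 0.067 (edgeR adjusted p = 0.447). SMAD7 (ENSG00000101665, chr18:48919853-48950965, minus strand), an inhibitory SMAD that binds the type I receptor and that TGF-beta itself induces, had 214, 286 and 212 TMM-normalized counts in NT and 197, 257 and 164 in OXA. The groups overlapped, with library 2 the highest in both. Its log2 fold change was -0.20 with a standard error of 0.22 (edgeR adjusted p = 0.642), or -0.027 with the authors' gene-specific factors. In all, 4 of the 9 genes tested had groups that did not overlap, GDF15, SMAD3 and BMP7 with OXA above NT and TGFBR2 with OXA below, where 28.9% of all genes tested did not overlap, 14.5% above and 14.4% below.

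**Figure D2:**
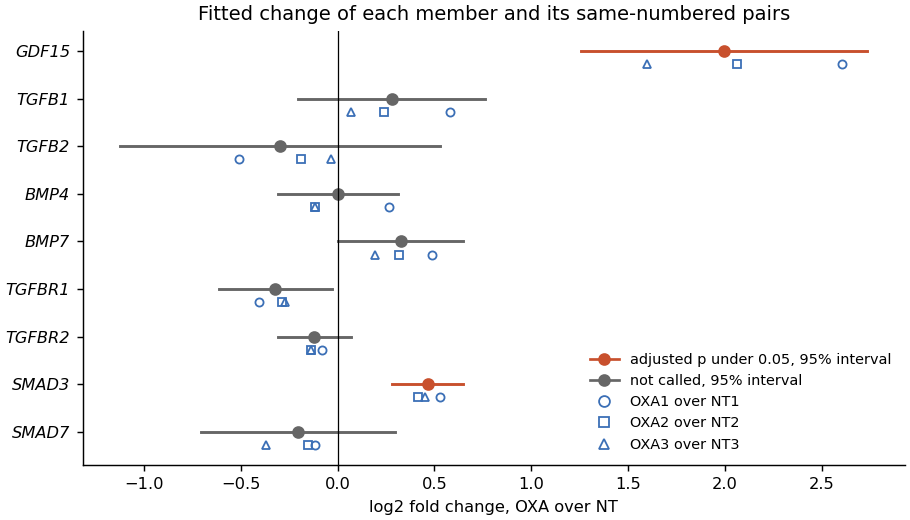
Fitted log2 fold change of OXA over NT (filled point) with its 95% interval for the 9 genes tested, red where the edgeR adjusted p was under 0.05, and the log2 ratio of each same-numbered pair as an open marker. The intervals of GDF15 (1.26 to 2.73) and SMAD3 (0.28 to 0.65) lay above 0 and passed the threshold, and those of BMP7 and TGFBR1 cleared 0 without passing it. An interval clears 0 where the unadjusted edgeR p is under 0.05, which held for 21.7% of all genes tested.

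Levels between genes were compared per transcript length, as TPM computed from the raw counts and the longest annotated transcript. In NT, BMP4 stood first at 307 ± 45.7 TPM (SD, n = 3). GDF15 (51.7 ± 22.1 TPM), TGFB1 (45.5 ± 11.2) and SMAD3 (42.1 ± 1.06) followed, and their libraries overlapped, so their order is not set. TGFBR1 (35.0 ± 4.52 TPM) and TGFBR2 (34.3 ± 1.13) came next by mean and overlapped too. GDF15 and TGFB1 were at 27.8 and 34.2 TPM in NT library 1, so their order against the 2 receptors is not set either. Below the 2 receptors BMP7 was at 9.54 ± 1.20 TPM, SMAD7 at 5.82 ± 0.978, TGFB2 at 0.431 ± 0.161 and INHBA at 0.0223 ± 0.00737, each clear of its neighbour. With the union of all exons as length, TGFBR1 (40.4 TPM) and TGFBR2 (41.2) stood above SMAD3 (38.5), so the order of these 3 depends on the length used.

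In OXA, GDF15 moved to a place of its own. BMP4 remained first at 293 ± 26.7 TPM and GDF15 was second at 197 ± 34.1 TPM, clear of BMP4 above it and of SMAD3 below it. SMAD3 (55.3 ± 1.43 TPM) and TGFB1 (52.7 ± 9.79) overlapped, as did TGFBR2 (30.1 ± 0.934) and TGFBR1 (26.7 ± 3.06). BMP7, SMAD7, TGFB2 and INHBA kept the last 4 places, at 11.4, 4.82, 0.334 and 0.0171 TPM.

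Set against the whole family, BMP4 took the largest share of the ligand transcripts in every library, and GDF15 had a larger share in OXA than in NT. Over 33 ligand genes of the family, the summed level was 452 ± 73.4 TPM in NT and 581 ± 55.3 in OXA. GDF15 made up 7.44%, 10.8% and 15.4% of that sum without treatment and 29.2%, 34.8% and 37.3% with it. Its lowest OXA share was above its highest NT share. BMP4 made up 71.3%, 68.7% and 64.3% in NT and 55.2%, 48.9% and 47.5% in OXA, although its TPM overlapped between the groups, since a share falls when another ligand rises. With the union of exons as length, the BMP4 share was 61.7% in NT and 45.6% in OXA. TGFB1 held 9.99% ± 0.875 in NT and 9.02% ± 0.813 in OXA.

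**Figure D3:**
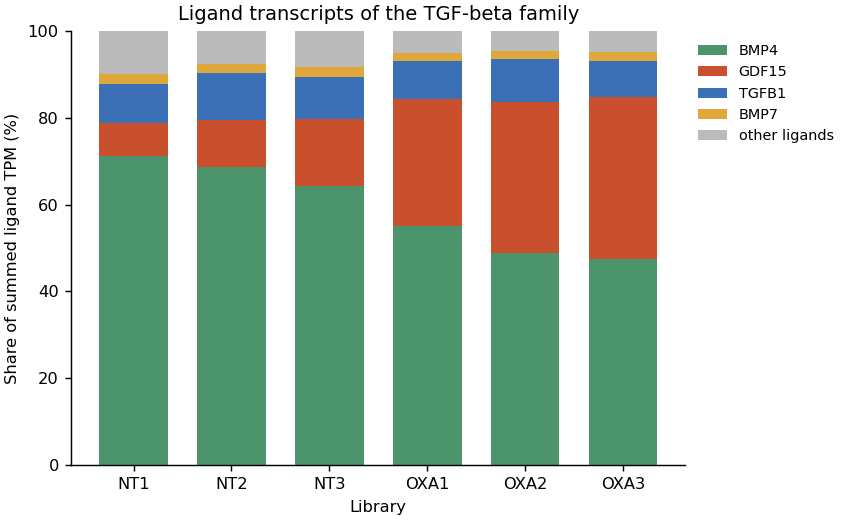
Share (%) of the summed TPM of 33 family ligands taken by BMP4, GDF15, TGFB1, BMP7 and all other ligands in each library, stacked to 100. The GDF15 part grew from 7.44% to 15.4% in NT to 29.2% to 37.3% in OXA and the BMP4 part was 64.3% to 71.3% in NT and 47.5% to 55.2% in OXA.

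The genes whose pattern over the 6 libraries was most like that of GDF15 were PPP2R5B, TSPAN14, HOXB4 and PHLDA3, taken from 12066 genes with a mean of at least 50 TMM-normalized counts. Pearson's r with GDF15, on log2 library-scaled counts, was 0.998, 0.998, 0.998 and 0.997, as a description over 6 libraries that share their treatment and NT library 1. PHLDA3, a known p53 target, rose by 1.77 on the log2 scale (edgeR adjusted p = 0.0218). For TSPAN14, HOXB4 and PPP2R5B the log2 fold changes were 0.60, 0.76 and 0.62 (edgeR adjusted p = 0.0393, 0.0483 and 0.0703). Between the 9 tested genes of the 10, r ran from -0.91 (SMAD3 with TGFBR2) to 0.94 (GDF15 with BMP7), and for GDF15 with SMAD3 it was 0.90.

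Outside the 10 genes, 124 genes of the pathway were listed by role, of which 85 could be tested. Among those 85, 5 were called higher and 3 lower, and the median log2 fold change was 0.045 against 0.023 over all genes tested. Over all genes tested, 2.78% were called higher and 2.29% lower. With the replicate block 15 were higher and 14 lower, where 12.1% and 10.9% of all genes tested were. Of the 27 other ligands only 8 could be tested, and BMP8B alone was called. Its TMM-normalized counts were 1009, 1144 and 1179 in NT and 714, 726 and 778 in OXA, which lay lower throughout (log2 fold change -0.59, edgeR adjusted p = 0.0258). Its near-identical neighbour BMP8A went from 314, 356 and 402 to 255, 285 and 308 (log2 fold change -0.34, edgeR adjusted p = 0.250), and reads shared by the pair could be split either way. BMP6 was called lower in the block fit only (log2 fold change -0.73, edgeR adjusted p = 0.129 without the block), and GDF11 had a log2 fold change of 0.041.

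Of 14 receptors and co-receptors, 10 were tested, of which 3 had a higher and 7 a lower fitted value. Of the 10, 1 was called lower, where 2.29% of all genes tested were. ACVR2B, a type II receptor for activins and myostatin, had 1974, 1807 and 1954 TMM-normalized counts in NT and 1452, 1284 and 1375 in OXA (log2 fold change -0.48, edgeR adjusted p = 0.0329). All its OXA values lay below its NT values. BMPR1A, a type I receptor for BMPs, had a log2 fold change of -0.29 and was called in the block fit only (edgeR adjusted p = 0.0351, against 0.214 without it). ACVR1B, the activin type I receptor, had a log2 fold change of -0.093, which became -0.27 with the authors' gene-specific factors (edgeR adjusted p = 0.219, and 0.0419 with the block as well). The 6 other SMAD genes were all tested and none was called by edgeR, DESeq2 or limma-voom. Their median was -0.23, and 2 of them had an unadjusted p under 0.05 in edgeR, as did 21.7% of all genes tested. SMAD1, SMAD4 and SMAD9 were called lower in the block fit, at log2 fold changes of -0.26, -0.21 and -0.62 without the block. That fit called 10.9% of all genes tested lower. SMAD2, the closest relative of SMAD3, had a log2 fold change of -0.098, and SMAD5 one of 0.026 whose sign turned with the scaling.

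Among genes listed as storing or activating the ligands, or as opposing them, 2 were called, LTBP2 and CRIM1. Both were higher, where 2.78% of all genes tested were called higher. LTBP2, a matrix protein that is in the latent TGF-beta binding protein family by name, is also listed as a target. LTBP2 rose from 64.4, 94.6 and 69.4 to 165, 203 and 167 TMM-normalized counts (log2 fold change 1.22, edgeR adjusted p = 0.0210), 1 of 12 tested genes of its list. ITGAV and LTBP3 had log2 fold changes of -0.11 and 0.25. In the block fit THBS1 and BMP1 were also called higher and LTBP1 lower. That fit called 12.1% of all genes tested higher and 10.9% lower. CRIM1, a transmembrane antagonist of BMPs, rose from 1587, 1665 and 1705 to 2414, 2182 and 2161 TMM-normalized counts (log2 fold change 0.45, edgeR adjusted p = 0.0361), 1 of 6 antagonists tested. With the authors' gene-specific factors both calls were lost (edgeR adjusted p = 0.0936 for LTBP2 and 0.0811 for CRIM1), and they were kept when the replicate block was added. The block fit added FSTL3 above and FSTL1 and TWSG1 below, and FSTL1 lost that call with the authors' gene-specific factors (edgeR adjusted p = 0.230, log2 fold change -0.17 against -0.31). None of the 22 intracellular inhibitors and co-repressors was called in edgeR, where 3 had an unadjusted p under 0.05 (21.7% of all genes tested), or in limma-voom, and DESeq2 called the deubiquitinase gene USP15 (adjusted p = 0.0419). With the replicate block, USP15, TGFBRAP1 and FKBP1A were called higher and LEMD3 lower. Their median log2 fold change was 0.059. SMURF2 and FKBP1A, the most abundant, had 0.074 and 0.18, and for FKBP1A the edgeR adjusted p was 0.296 without the block, 0.0440 with it and 0.190 with the block and the authors' gene-specific factors.

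**Figure D4:**
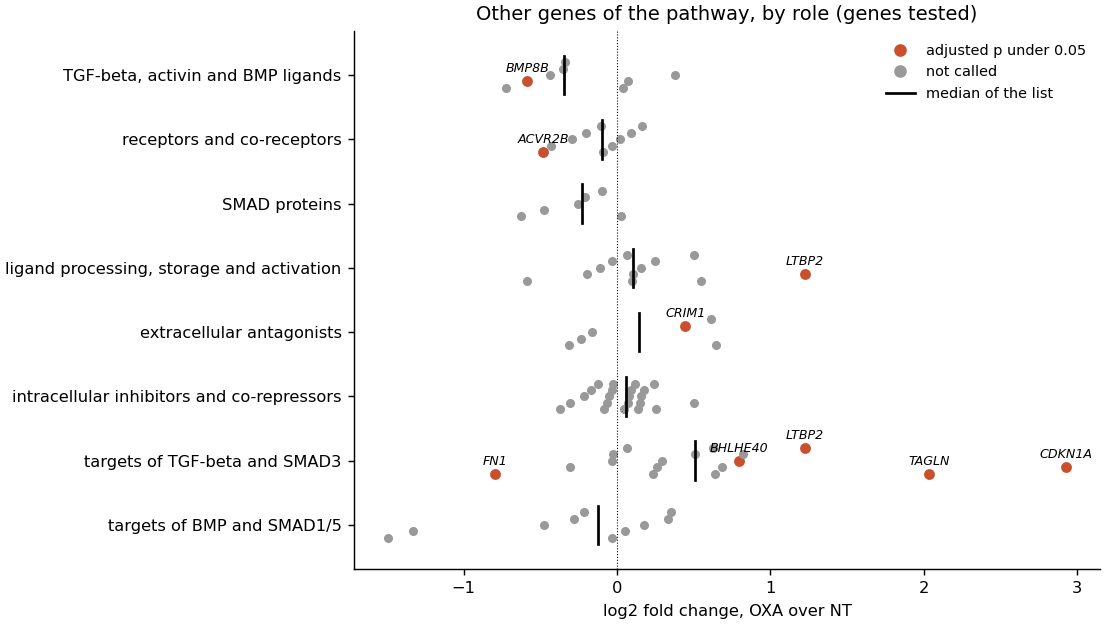
Log2 fold change of OXA over NT for each tested gene of the 8 role lists outside the 10 genes, red and named where the edgeR adjusted p was under 0.05, with the list's median as a bar. Of the TGF-beta and SMAD3 targets 5 of 17 were called, where 5.07% of all genes tested were. The role lists were written with earlier results of these data known, so these counts are a description only. The lists of SMADs, intracellular inhibitors and BMP targets held no call in the fit without a block. With the replicate block they held 3 of 6, 4 of 22 and 3 of 10 tested, where 23.0% of all genes tested were called.

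The list of genes known to respond to TGF-beta and SMAD3 had a median log2 fold change of 0.51 over its 17 tested genes. Of these, 4 were called higher and 1 lower, where 2.78% of all genes tested were called higher and 2.29% lower. The list was written with earlier results of these data known, so its counts and median are a description only. The genes called higher were CDKN1A, TAGLN, LTBP2 and BHLHE40. CDKN1A, the cell cycle inhibitor p21 and also a main p53 target, had 4237, 5145 and 6052 TMM-normalized counts in NT and 40194, 41329.6 and 35844 in OXA (log2 fold change 2.93, edgeR adjusted p = 0.000445). TAGLN, an actin-binding protein, went from 32.7, 54.1 and 35.6 to 182, 194 and 127 TMM-normalized counts (log2 fold change 2.04, edgeR adjusted p = 0.00953).

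BHLHE40, a transcriptional repressor, had 1671, 2454 and 1630.4 TMM-normalized counts in NT and 3338, 3681 and 2990.3 in OXA, and was close to the threshold (log2 fold change 0.80, edgeR adjusted p = 0.0428, or 0.0513 with the authors' gene-specific factors). FN1, which encodes the matrix protein fibronectin and is a standard TGF-beta target, fell. It had 2220.0, 2495 and 2473 TMM-normalized counts in NT and 1444, 1472 and 1226 in OXA (log2 fold change -0.80, edgeR adjusted p = 0.00975). The inhibitors of the pathway that the list holds as its own targets, PMEPA1, SKIL and TGIF1, had log2 fold changes of -0.30, -0.031 and -0.029 and were not called, nor was SMAD7. PMEPA1 and SKIL were named after their values were seen. TPM1, a tropomyosin and with TGIF1 the most abundant of the genes not called, had a log2 fold change of 0.23. In the block fit CCN2, SNAI1 and PDGFB were called higher as well, where 12.1% of all genes tested were.

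Targets of BMP and SMAD1/5 showed no call among 10 tested genes in edgeR, DESeq2 or limma-voom, where 3 had an unadjusted p under 0.05 in edgeR, against 21.7% of all genes tested, and the median log2 fold change was -0.13. ID1 and ID2, transcriptional inhibitors and standard readouts of BMP signalling, had log2 fold changes of 0.33 and 0.052 (edgeR adjusted p = 0.336 and 0.855). Without NT library 1 the log2 fold change of ID1 was 0.17 (edgeR adjusted p = 0.450). In the block fit ID1 was called higher, and ID4 and ATOH8, both with few counts, were called lower. That fit called 12.1% of all genes tested higher and 10.9% lower. For ID4 the mean TMM-normalized count was 29.1 ± 7.24 in NT and 10.5 ± 4.44 in OXA, with no overlap. ATOH8 overlapped between the groups, at 17.4, 57.2 and 42.0 in NT and 9.74, 16.4 and 19.6 in OXA.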

How the data were processed

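Poly(A) RNA of 6 HCT116 libraries was sequenced with paired ends, and per the labels' processing notes the tools were Trimmomatic 0.32, STAR 2.7.5b, RSEM 1.3.3 and DESeq2 2.13 with the GRCh38 build. The counting annotation and its strand setting are not given in the sources used here. The authors deposited a raw count per gene and library, used as deposited, and a normalized signal, the count times a factor that differs between genes as well as libraries, used only in alternatives. Of 27942 genes, 19353 had at least 1 count. Genes were kept by edgeR's filterByExpr (minimum count 10, minimum total 15), normalized by TMM and tested by edgeR's quasi-likelihood test over 13727 genes, with Benjamini-Hochberg adjustment and a threshold of 0.05 (R 4.3.3, edgeR 4.0.16, limma 3.58.1, DESeq2 1.42.0). The steps were also run on simulated counts, in which no library was made to stand apart as NT library 1 did. TPM used raw counts and the longest GENCODE transcript, known for 99.1% of identifiers. Counts at or under 3 were taken as the detection floor. Standard errors were derived from edgeR's quasi-likelihood test, as the size of the log2 fold change over the square root of the F statistic. Intervals are at 95%, were built from these standard errors with a t quantile and include the spread between these libraries. PCR copies could not be recognised. Fits with the replicate number as a block were made because same-numbered libraries correlated over 0.1, where libraries of different numbers gave -0.47 to 0.090. Deviations from a group mean cancel out within the group, so positive values for same numbers pull the others down. The contrast between them is therefore no separate evidence of pairing. The labels do not say what a number stands for. Named are the 10 genes, the called genes of the pathway lists (per list at most the 6 largest in each direction), the 2 most abundant others per list, genes of counts of 5 or fewer, and the 4 genes most like GDF15. The 10 genes, the pathway lists and the tests were chosen with earlier results of these data known, and 1 gene was taken off a list because it is not reported here. Alternatives were other scalings and filters, DESeq2, limma-voom, a robust fit, a test against a 1.5-fold change, the block, the authors' normalized signal with a pseudocount of 1, each library left out, and, chosen after seeing the data, the authors' gene-specific factors in edgeR.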

Additional observations from a re-analysis of the deposited data

How the results depend on the processing

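The count of genes called among the 10 was 2, and it was 0 in a test against a 1.5-fold change, 1 with the authors' normalized values in limma-trend, 1 with their gene-specific factors in edgeR, 3 with the replicate block (TGFBR1 added) and 0 to 2 with each library left out. Of 8 calls among the pathway lists, leaving out a library gave 1 (without OXA library 1) to 13 (without NT library 1), the 1.5-fold test 1, the replicate block 29, the gene-specific factors 5 and those factors with the block 24. Over all genes the 696 calls became 1175 with DESeq2, 50 in the 1.5-fold test, 3157 with the replicate block, 423 with the authors' normalized values, 441 with their factors, 2486 with their factors and the block, and 85 to 1194 with each library left out. CDKN1A was called in 6 of 6 fits without a library, FN1 in 5 (not without OXA library 1), TAGLN in 3 (without NT library 1 or 2 or OXA library 3), ACVR2B, LTBP2 and BHLHE40 in 2 (without NT library 1 or 2), and BMP8B and CRIM1 in 1 (without NT library 1).

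For the 9 tested genes of the 10, 102 of 116 fits of a single gene under settings that kept all libraries gave the same direction and call, 4 lost the call (GDF15 and SMAD3 in the 1.5-fold test, SMAD3 with the authors' values or factors), 1 gained it (TGFBR1 with the block, which changed no other call among them) and 9 turned the sign. BMP4 had -0.034 with upper quartile factors, -0.036 with library size alone, -0.023 with no filter, -0.020 with the authors' values, -0.026 with their factors, -0.020 with factors and block, and -0.094 to 0.10 with a library left out. TGFB2 had 0.42, 0.51 and 0.46 under the authors' values, their factors, and factors with block. SMAD5 had -0.014 (upper quartile), -0.013 (library size) and -0.0029 (no filter), and -0.073 to 0.082 with a library left out. With a library left out, GDF11 ran from -0.015 to 0.080, LTBP3 from -0.062 to 0.45, SMURF2 from -0.0078 to 0.13, TGIF1 from -0.13 to 0.037 and ID2 from -0.067 to 0.12. With the union of exons as length, TPM was 63.8 for TGFB1, 259.9 for BMP4, 30.8 for TGFBR1, 36.2 for TGFBR2, 50.8 for SMAD3 and 0.460 for TGFB2 in OXA, and 0.592 for TGFB2, 40.4 for TGFBR1, 41.2 for TGFBR2, 38.5 for SMAD3 and 6.996 for SMAD7 in NT. The causes were not tested. At the depth of these libraries, no difference in INHBA was detectable.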
